A study of Mus musculus with 16 samples.

Results

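Erythroid-labelled cells were the cells of B78 tumors that the authors named "Erythroid cell" in their deposited table of cells, and they numbered 1134 of 163343 cells, or 0.694%. That name alone chose them. The cells came from droplet-based single-cell RNA sequencing of 16 subcutaneous tumors in male C57/BL6 mice of 8 to 11 weeks, and each library was made from a fragment of a tumor that had been digested and sorted for live cells. B78, the line they grew from, is an amelanotic mouse melanoma derived from B16. In 7 tumors the implanted cells were wild type, and in 9 a base editor had truncated mt-Nd5, which encodes a subunit of respiratory complex I. Of these 9, 3 grew from cells with m.11944 and 3 from cells with m.12436, each in about 60% of mitochondrial genomes. The other 3 grew from cells with m.12436 in about 80%. These values are those of the implanted cells, and the paper reports slightly lower ones in bulk tumors. Only the implanted cells were edited, so any host cell in a tumor, wherever it came from, was of unedited mouse origin in every group. No other treatment is given for these tumors, and no step to lyse red cells is described for them.

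Cells of the erythroid lineage arise in bone marrow and, in mice, in the spleen. Their progenitors divide, fill with globin messenger RNA, condense and expel the nucleus. The resulting reticulocytes lose their ribosomes as they mature into red cells. Late in this course globin transcripts make up most of what is left of the RNA, so that few genes account for much of it. The markers by which such cells are known are Hbb-bs, which encodes an adult beta globin chain, and Hba-a1, which encodes an alpha globin chain. The deposited table holds no expression of any gene. Neither marker could therefore be read, the label could not be checked against globin, and no sequence bears on the values below. What could be described is where the labelled cells were found, how deeply they were read, and which calls and scores the authors' tools gave them.

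The whole data set held 15 classes and 39 numbered clusters, and tumors held 6371 to 13448 cells with median UMIs per cell of 3130.5 to 7527.5. A UMI is a counted RNA molecule. The table put the tumors in 3 batches. All m.11944 60% tumors were in the first, beside wild-type tumors 1 to 3, and all m.12436 60% tumors in the second, beside wild-type tumors 4, 5 and 7. The m.12436 80% tumors and wild-type tumor 6 formed the third, which is named after the 80% group. The tumor m.11944 60% 1 stood apart by its fibroblast-labelled cells, 15.1% of its cells, and wild-type tumor 5 by the erythroid share described next. Of all cells 4.04% carried a barcode that also occurred in another library, against 50 of 1134 erythroid-labelled cells (4.41%), and 2 erythroid-labelled cells, 1 in wild-type tumor 5 and 1 in m.12436 60% 1, shared a barcode with each other.

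The erythroid label was spread very unevenly over the tumors. Wild-type tumor 5 alone held 652 of the 1134 cells (57.5%), and with m.12436 60% 1, which held 110, and m.11944 60% 1, which held 102, it made up 864 cells (76.2%). The remaining 13 tumors shared 270 cells. As a share of all cells of its tumor, the class took 5.93% in wild-type tumor 5 (exact 95% Clopper-Pearson interval from 5.50%). The next highest was 1.05% in m.12436 60% 1, and wild-type tumor 5 stood at 5.65 times that value and at 30.02 times the median of the other 15, which was 0.198%. Such intervals cover counting error only.

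Among the wild-type tumors the share was 0.0254% in tumor 1, where it rested on 2 cells, 0.237% in tumor 2, 0.109% in tumor 3, 0.518% in tumor 4, 5.93% in tumor 5, 0.317% in tumor 6 and 0.198% in tumor 7. The m.11944 60% tumors held 0.792%, 0.0669% and 0.0648%, and the m.12436 60% tumors 1.05%, 0.0497% and 0.178%. The m.12436 80% tumors held 0.198%, 0.589% and 0.350%. Each 60% group therefore had 1 high and 2 low tumors, whereas the 80% tumors lay within a narrower range, and all mutant tumors lay within the range of the wild-type tumors. That range rested on tumor 5 at its upper end. Without it the highest wild-type tumor was tumor 4 at 0.518%, and 3 mutant tumors lay above that value. The ratio of the highest to the lowest tumor was 233 for this class and still 41.3 without wild-type tumor 5. For the 13 other classes seen in every tumor that ratio lay between 2.22 for macrophages and 16.9 for T cells.

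**Figure D1:**
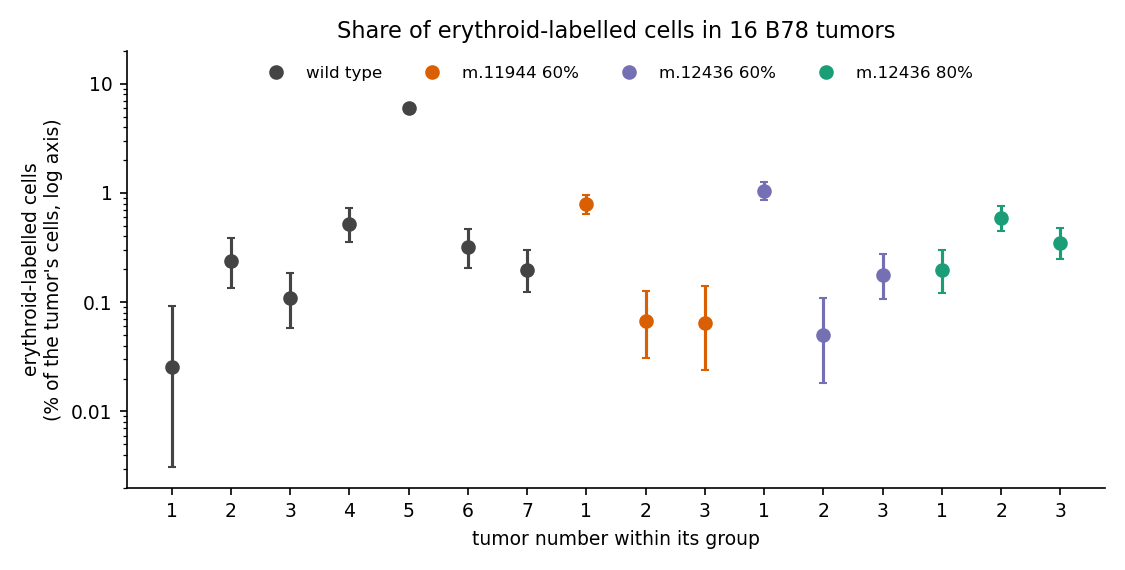
Erythroid-labelled cells in percent of all cells of each tumor, on a log axis, with the tumors ordered by group and number and bars for exact 95% Clopper-Pearson intervals (counting error only). Wild-type tumor 5 sits at 5.93%, and the other 15 tumors lie between 0.0254% and 1.05%.

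Wild-type tumor 5 also lay outside the range of the other 15 in some of the 14 classes that were not erythroid. In the rest of those classes it lay inside that range. It had the lowest share of cancer-labelled cells, 18.9% against 24.1% to 56.7%, and the highest share of neutrophils, 14.7% against 1.23% to 12.9%. Its CD8 T cells were the highest as well, at 2.33% against 0.386% to 1.97%, and its endothelial cells the lowest, at 0.109% against 0.235% to 0.879%. The part of these shares in its erythroid share was not tested. With the cancer-labelled cells left out of the denominator, erythroid-labelled cells were 7.32% of its cells, and the next highest tumor was m.12436 60% 1 with 1.503%. Of all UMIs read in wild-type tumor 5, 3.57% were in erythroid-labelled cells.

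The first comparison asked whether the share differed between wild-type tumors and all mutant tumors. The mean was 1.05% ± 2.16 (SD, n = 7) in wild type and 0.371% ± 0.361 (SD, n = 9) in mutant tumors, a difference of −0.68 percentage points, which was smaller than the spread between wild-type tumors (95% interval from the inverted test −2.17 to 0.345, two-sided exact permutation p = 0.553, adjusted p = 0.714 over 15 classes by the Benjamini-Hochberg method). Of the 15 classes 0% passed the adjusted threshold of 0.05, and 1 had an unadjusted p under 0.05. The quasi-likelihood test of edgeR on the numbers of cells also called 0 classes, both with total cells and with TMM factors as the scale. Without wild-type tumor 5 the direction turned. The wild-type mean was then 0.234% ± 0.172 (SD, n = 6), lower than the mutant mean by 0.137 percentage points (95% interval of the difference −0.201 to 0.485, exact permutation p = 0.416, adjusted p = 0.568). A higher share of a class cannot be told apart from fewer captured cells of the others.

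Taken batch by batch, the wild-type mean was 0.124% ± 0.107 and the mutant mean 0.308% ± 0.419 in the first batch (SD, n = 3 and 3). In the second they were 2.22% ± 3.22 and 0.426% ± 0.544 (SD, n = 3 and 3), and the wild-type mean without tumor 5 was 0.358% (n = 2). In the third, the only wild-type tumor held 0.317% and the mutant tumors 0.379% ± 0.197 (SD, n = 3). Mutant tumors were higher on average in the first and the third batch and lower in the second, and in each batch that side rested on 1 tumor. Without m.11944 60% 1 the first-batch mutant mean was 0.0659% (n = 2), below wild type, without m.12436 80% 2 the third-batch mutant mean was 0.274% (n = 2), again below wild type, and without wild-type tumor 5 the second batch turned as well. Permuted within batches, the difference was −0.59 percentage points (exact permutation p = 0.742), and without wild-type tumor 5 it was 0.113 (exact permutation p = 0.521).

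The other comparisons gave the same picture of differences inside the spread. The 60% tumors of both mutations averaged 0.367% ± 0.439 (SD, n = 6) and differed from wild type by −0.68 percentage points (95% interval −2.70 to 0.597, exact permutation p = 0.830, adjusted p = 0.886), and by 0.133 without wild-type tumor 5 (exact permutation p = 0.515). The 80% tumors averaged 0.379% ± 0.197 (SD, n = 3) and differed from wild type by −0.67 percentage points (95% interval −2.95 to 2.11, exact permutation p = 0.917, adjusted p = 0.950), and by 0.145 without wild-type tumor 5 (exact permutation p = 0.286). In each of these 2 comparisons 0% of the 15 classes passed adjustment, 1 class had an unadjusted p under 0.05 and edgeR called 0 with either scale. The 80% tumors were 0.0119 percentage points above the 60% tumors (95% interval −0.794 to 0.803, exact permutation p = 0.988, adjusted p = 0.988). Here too 0% of classes passed and 1 had an unadjusted p under 0.05, while edgeR with TMM scaling called 2 classes, neither of them erythroid. At 60%, m.12436 tumors averaged 0.426% ± 0.544 and m.11944 tumors 0.308% ± 0.419 (SD, n = 3 and 3, exact permutation p = 0.700, where 0.1 is the smallest p that this design allows). No class passed there (0%), 0 had an unadjusted p under 0.05 and edgeR called 0.

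All 1134 cells lay in cluster 26, and that cluster held 0 cells of any other class, so the class and the cluster were the same cells. Comparisons of this class with other cells are therefore given as descriptions, with no test. Among the classes they were of middling depth, with 8 of the other 14 classes below them by median UMIs and 6 above, while by median genes 5 were below and 9 above. Their median was 2512.5 UMIs (quartiles 1266.5 and 4843) and 1053 genes (quartiles 655.5 and 1758.5), with a minimum of 664 UMIs and a maximum of 33819. Without wild-type tumor 5 the medians were 2904.5 UMIs and 1159 genes over 482 cells. By median UMIs the 3 nearest classes were T cells at 2452, NK cells at 2245 and monocytes at 2834. By median genes they were CD4 T cells and fibroblasts, both at 1000, and B cells at 1116.5.

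Since the authors kept cells from 500 genes upward, the cells just above that floor show how close the class came to it. Under 600 genes were 225 of the 1134 cells (19.8%), a share passed only by mast cells (20.3%), fibroblasts (24.0%) and neutrophils (27.9%). They were not evenly placed, because 144 lay in wild-type tumor 5 (22.1% of its erythroid-labelled cells) and 49 in m.11944 60% 1 (48.0%), and the other tumors together held 32. Wild-type tumor 2 had 8 such cells among 16, and in 5 tumors, among them m.12436 80% 1 and wild-type tumor 7, there was none. The tumors with many erythroid-labelled cells were thus not all shallow, since m.12436 60% 1 had only 8 such cells among 110.

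Median UMIs per tumor differed 6.30-fold among the 15 tumors with at least 5 erythroid-labelled cells, from 1205.5 in m.11944 60% 1 to 7598 in m.11944 60% 3, which held 6 of them. Beside all other cells of the same tumor, erythroid-labelled cells had fewer UMIs in 12 of 15 tumors and fewer genes in 15 of 15, with a median difference of −765.5 genes. The other cells include the deeply read cancer-labelled cells, and beside the other non-malignant cells of the tumor the direction in UMIs turned. There they had more UMIs in 9 of 15 tumors, with a median difference of 616 UMIs, and fewer genes in 9 of 15, with a median difference of −65 genes. The gap to all other cells in genes was smaller at matched depth. Where the other cells of a tumor were weighted to the same UMI counts, the median difference was −175 genes, and the erythroid-labelled cells were still lower in 13 of 15 tumors. The 2 exceptions were wild-type tumor 3 and m.12436 80% 2.

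**Figure D2:**
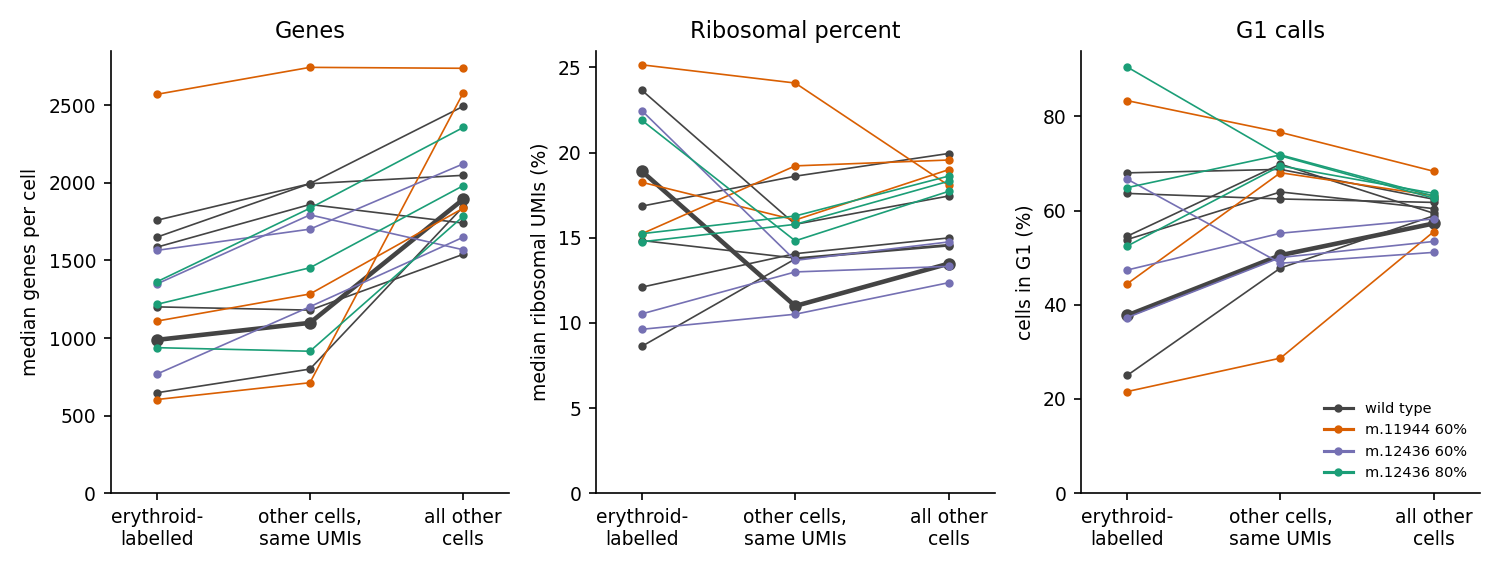
Each line is 1 of 15 tumors, coloured by group, with wild-type tumor 5 drawn thicker. The panels give median genes per cell, median percent of UMIs from ribosomal genes and percent of cells called G1, for erythroid-labelled cells, for the other cells of that tumor weighted to the same UMI counts, and for all its other cells. Genes rise from left to right in most tumors, whereas the lines of ribosomal percent and G1 cross.

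Among classes, the few genes per UMI set erythroid-labelled cells low in every range under 12000 UMIs. At under 1500 UMIs they had a median of 0.606 genes per UMI, and 2 of the other 13 classes with enough cells were lower, the lowest being neutrophils at 0.531. From 3000 to 6000 UMIs the value was 0.399, again with 2 classes lower, and from 6000 to 12000 UMIs it was 0.309, with fibroblasts alone lower at 0.280. The classes at the other end were CD4 T cells at 0.705 in the lowest range and T cells at 0.395 from 6000 to 12000 UMIs. At 12000 UMIs or more the value was 0.238, with 1 class lower, but that range has no upper end. The classes' median UMIs in it ran from 13125.5 in monocytes to 18189 in erythroid-labelled cells. By median genes, 4452, erythroid-labelled cells there had 4 classes below them and 2 above. A class needed 20 cells in a range to be counted, and each range includes its lower end and not its upper.

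Ribosomal genes made up a median of 19.1% of the UMIs of erythroid-labelled cells (quartiles 11.8 and 23.9, range 1.18 to 44.4). The 3 nearest classes were CD8 T cells at 19.4%, NK cells at 19.8% and mast cells at 21.2%, and neutrophils were the lowest class at 6.36%. The value followed depth in this class, but not in 1 direction. It fell from 21.1% under 1500 UMIs to 18.4%, 12.98% and 13.2% in the next ranges, and was 23.0% at 12000 UMIs or more. In wild-type tumor 5 the 5 ranges gave 19.7%, 20.01%, 12.98%, 10.03% and 23.4%, and in the other 15 tumors 23.8%, 14.9%, 13.1%, 17.2% and 22.6%, with the lowest value between 3000 and 12000 UMIs in both. At 12000 UMIs or more 97.8% of the erythroid-labelled cells were called aneuploid, a call described below. Over all depths the median ribosomal percent was 23.3 in cells so called and 18.2 in diploid ones, and the part of this in the values by depth was not tested. Cancer-labelled cells had their lowest value earlier, 16.1% from 1500 to 3000 UMIs, and rose to 25.03% at 12000 or more.

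**Figure D3:**
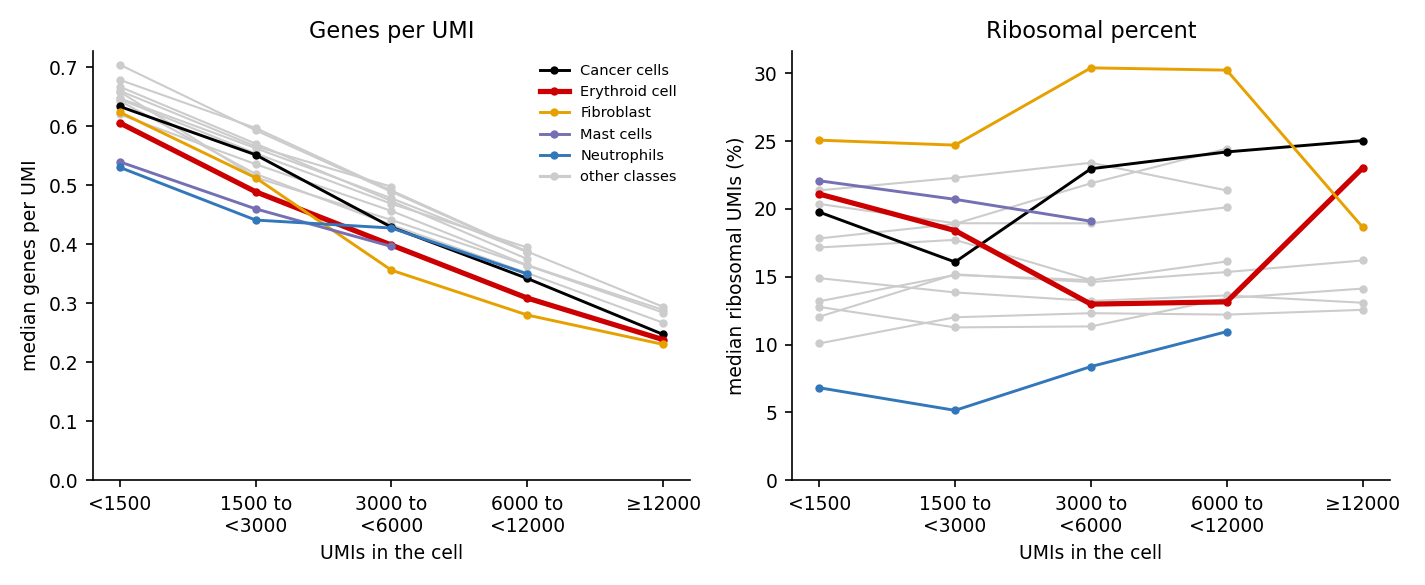
Median genes per UMI and median percent of UMIs from ribosomal genes by the number of UMIs in the cell, 1 line per class with at least 20 cells in the range. Erythroid-labelled cells (thick red) lie among the lowest lines for genes per UMI, and their ribosomal percent is 12.98 and 13.2 in the ranges from 3000 to 12000 UMIs and 23.0 at 12000 or more.

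A group of 99 erythroid-labelled cells (8.73%) had under 5% ribosomal UMIs, a limit chosen after the values were seen. Only endothelial cells (9.64%) and neutrophils (26.2%) had a larger share of such cells. These 99 cells had medians of 813 genes and 3512 UMIs. Genes per UMI, taken cell by cell, had a median of 0.249 in them, against 0.476 in the 1035 others. Their median mitochondrial percent was 0.321 against 0.741. They occurred in 9 of 16 tumors. Wild-type tumor 5 held 57 of them (8.74% of its erythroid-labelled cells), wild-type tumor 7 held 7 of 22 (31.8%), m.12436 60% 3 held 5 of 19 (26.3%) and m.12436 60% 1 held 12 of 110 (10.9%). Without wild-type tumor 5 the share was 8.71%, so that tumor did not set it.

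Per tumor, the median ribosomal percent ranged from 8.63 in wild-type tumor 7 to 25.2 in m.11944 60% 1, and it was higher than in the other cells of the tumor in 6 of 15 tumors and lower in 9. Wild-type tumor 5 was among the higher ones, at 18.9% against 13.5% in its other cells. Beside the non-malignant cells alone, erythroid-labelled cells were higher in 11 of 15 tumors. The percent of UMIs from dissociation-related genes was lower than in the other cells in 13 of 15 tumors, with a median difference of −0.44 percentage points, and the mitochondrial percent lower in 10 of 15.

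The authors' phase calls put 468 of the cells in G1 (41.3%), 327 in S (28.8%) and 339 in G2M (29.9%). These calls rest on scores of cell-cycle genes, and a cell is called G1 where neither score is above zero. The share in G1 was closest to those of T cells (41.2%), NK cells (42.6%) and CD4 T cells (39.8%), and without wild-type tumor 5 it was 46.1%. It rose with depth, from 26.4% of the cells under 1500 UMIs to 39.3%, 44.6%, 59.5% and 72.0% in the ranges above. In wild-type tumor 5 the ends were 29.1% and 72.0%, and in the other 15 tumors 21.5% and 72.1%. At 1500 to 3000 UMIs wild-type tumor 5 had 32.7% in G1 (exact 95% Clopper-Pearson interval 25.4 to 40.7) and the others 48.3% (38.9 to 57.7). From 3000 to 6000 UMIs the shares were 37.9% and 52.2%, and from 6000 to 12000 UMIs 55.9% and 63.2%. These intervals cover counting error only. That of the others pools the cells of many tumors and leaves out the spread between them, and no test was run. The ranges also differed in the ploidy call described below, with 0% of cells called aneuploid under 1500 UMIs and 97.8% at 12000 or more. Over all depths 69.9% of cells called aneuploid and 36.5% of diploid ones were in G1. The parts of depth and of ploidy call in the rise were not separated. The cells could not be brought to a common number of UMIs, since the table holds no counts per gene, and a call of S or G2M is not read here as division.

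The median S score of cells called S was 0.0466 and the median G2M score of cells called G2M was 0.0651, close to zero, while the highest values were 0.376 and 0.533. Per tumor the share in G1 went from 21.6% of 102 cells in m.11944 60% 1 to 90.5% of 21 cells in m.12436 80% 1. Under 600 genes lay 48.0% of the cells of the former and 0% of those of the latter. Beside the other cells of the same tumor, fewer erythroid-labelled cells were in G1 in 9 of 15 tumors, and in 11 of 15 beside other cells of the same UMI counts, with a median difference of −7.82 percentage points.

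**Figure D4:**
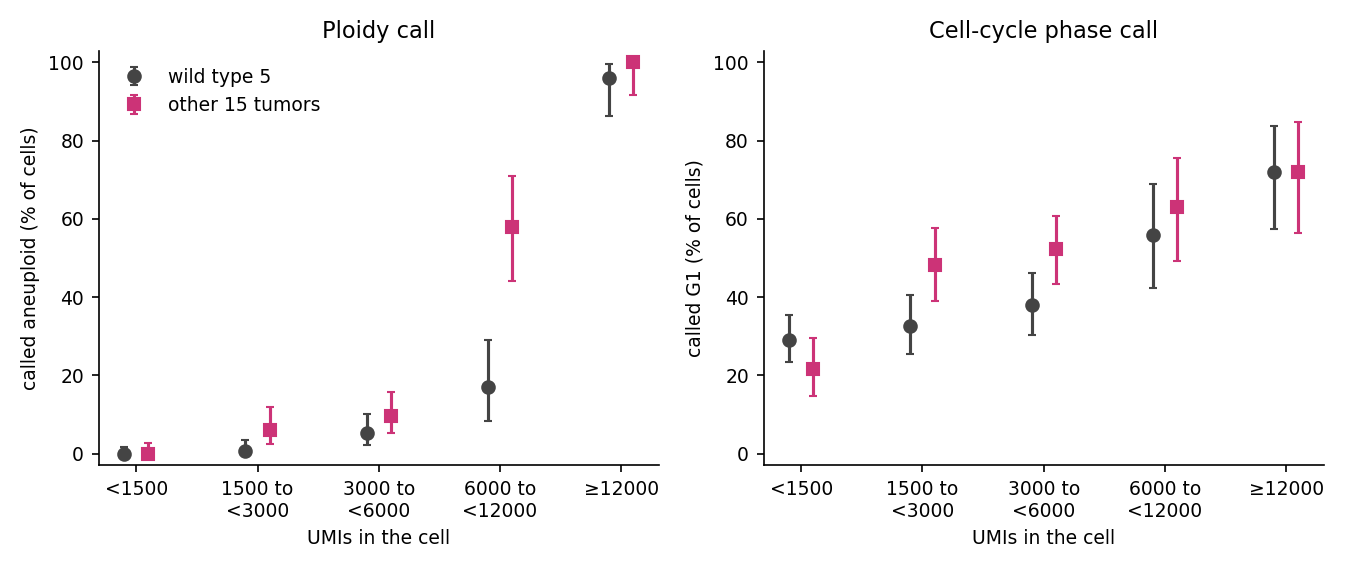
Percent of erythroid-labelled cells called aneuploid (left) and called G1 (right) by the number of UMIs in the cell, for wild-type tumor 5 and for the other 15 tumors, with exact 95% Clopper-Pearson intervals (counting error only). Both calls rise with UMIs, and the aneuploid share is 0% in both sets under 1500 UMIs and 96.0% and 100% at 12000 or more.

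CopyKAT, which infers gains and losses of chromosome segments from expression, called 163 of the cells aneuploid (14.4%). This call is one of the criteria by which the authors named cancer cells, of which 98.4% carried it. Among the other 13 non-malignant classes, 10 were under 0.5% aneuploid, and the 3 nearest to erythroid-labelled cells were endothelial cells at 16.8%, mast cells at 4.66% and macrophages at 0.446%, while fibroblasts were at 29.1%. Wild-type tumor 5 held 67 of the 163 cells (10.3% of its 652), and without it the share was 19.9%. The authors gave CopyKAT the T and NK cells as its diploid reference. The low shares of CD4 T, CD8 T, T and NK cells are therefore not independent of that setting. In every one of 15 tumors the erythroid share called aneuploid was above that of the other non-malignant cells and below that of all other cells. The other non-malignant cells, here and below, include the reference cells.

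The ploidy call was tied to depth. It was 0% of 364 cells under 1500 UMIs (which, with 3 counts taken as the limit for a count of 0, allows a share of up to 0.824%, where the exact 95% Clopper-Pearson upper limit is 1.01%), 2.94% of 272 cells from 1500 to 3000, 7.27% of 289 from 3000 to 6000, 37.1% of 116 from 6000 to 12000 and 97.8% of 93 at 12000 or more. Above 10000 UMIs, 105 of 111 erythroid-labelled cells were called aneuploid (94.6%). In that range the share was 54.0% in fibroblasts, 37.4% in endothelial cells, 1.89% in macrophages and 0% of 537 monocytes, which by the same limit of 3 counts allows a share of up to 0.559%. At 10000 UMIs or fewer it was 5.67% of erythroid-labelled cells and 0.0143% of monocytes.

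Cancer-labelled cells were read to different depths in different tumors, with medians from 6347.5 to 23118.5 UMIs, so a limit was also taken from each tumor. In all 16 tumors every erythroid-labelled cell with more UMIs than the lower quartile of its own tumor's cancer-labelled cells was called aneuploid. These were 109 of 109 cells (exact 95% interval from 96.7%, counting error only). They were unevenly spread, with 47 in wild-type tumor 5 and 16 in m.12436 60% 1. Wild-type tumors 1, 2 and 6 and m.12436 60% 2 and 3 held only 1 each. Of the 1025 cells at or below that quartile 54 were called aneuploid (5.27%). Among the other non-malignant cells the shares were 32.7% of 1784 cells above the quartile and 1.55% of 99108 below. This limit was chosen after the values were seen.

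Cells called aneuploid also differed from diploid ones in the other scores. In wild-type tumor 5 their median was 17342 UMIs against 1993, their median doublet score 0.119 against 5.32e-05, and 98.5% had an epithelial score above 0 against 32.8%. In the other 15 tumors the medians were 10543 and 2353.5 UMIs and 0.00204 and 0.000238 for the doublet score, and 82.3% and 27.7% had an epithelial score above 0. That score averages cytokeratins, Epcam and Sfn and was another criterion for cancer cells, 81.7% of which were above 0. Over all erythroid-labelled cells 39.2% were above 0, where fibroblasts had 44.1% and the other non-malignant classes 12.6% to 31.8%. The aneuploid and diploid cells were not compared at the same depth, and in monocytes too both scores were higher in deep cells. The median doublet score of monocytes was 6.94e-05 under 1500 UMIs and 0.0690 at 12000 or more. An epithelial score above 0 was found in 12.5% and 40.4% of them. No cell of the table is called a doublet, and whether called doublets had been removed beforehand is not stated. The part of cells read together with a cancer cell in these calls was not tested.

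Low-depth aneuploid calls were also unevenly spread over tumors. Of the 58 cells with 10000 UMIs or fewer that were called aneuploid, 32 lay in the 3 m.12436 80% tumors, where they made up 27.6% of 116 such cells, and 26 in the other 13 tumors (2.87% of 907). Wild-type tumor 5 set much of that second share with 13 of 595, and without it the share was 4.17% of 312. In the 3 tumors of the 80% group the shares were 22.2%, 24.6% and 35.1%, whereas wild-type tumor 6 of the same batch had 0 of 23, which by the limit of 3 counts allows a share of up to 13.04%. Values as high were not particular to that group, since wild-type tumor 3 had 5 of 12 (41.7%), m.11944 60% 2 had 2 of 8 (25%) and m.11944 60% 3 had 2 of 5 (40%), all on few cells, and the single such cell of wild-type tumor 1 was called aneuploid. The median UMIs of cancer-labelled cells were 13839, 8538 and 9282 in the 3 and 18045 in wild-type tumor 6, and the part of depth in this was not tested.

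The last comparison set the cells' own measures in wild type against mutant tumors, using 6 and 9 tumors with at least 5 erythroid-labelled cells and the tumor as the replicate. Wild-type tumor 1, with 2 cells, was left out. Median UMIs averaged 3287 ± 1522 over wild-type tumors against 3290.5 ± 1870 over mutant ones (SD, n = 6 and 9, exact permutation p = 0.998). Median genes averaged 1305 ± 435 and 1276 ± 573 (SD, n = 6 and 9, exact permutation p = 0.923). The medians of the 2 groups overlapped, with 1407 to 4774 UMIs in wild type and 1205.5 to 7598 in mutant tumors, where the highest value came from the 6 cells of m.11944 60% 3 and the next was 4032.

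Ribosomal percent averaged 15.8 ± 5.26 over wild-type tumors against 17.02 ± 5.35 over mutant ones (SD, n = 6 and 9), a difference of 1.19 percentage points with an interval of −5.00 to 7.27 (exact permutation p = 0.673). The share in G1 averaged 50.5% ± 16.2 and 56.5% ± 22.0 (SD, n = 6 and 9), which differed by 6.04 percentage points with an interval of −16.9 to 28.8 (exact permutation p = 0.574). The share called aneuploid averaged 20.4% ± 16.1 and 24.8% ± 14.5 (SD, n = 6 and 9), a difference of 4.46 percentage points with an interval of −12.9 to 21.8 (exact permutation p = 0.576). Of 11 measures tested, 0% passed adjustment and 0 had an unadjusted p under 0.05. The smallest p was 0.322, for the median G2M score (adjusted p = 0.857). Differences inside these intervals were not rejected by the permutation tests. The smallest difference that 6 and 9 tumors could detect was not computed.

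**Figure D5:**
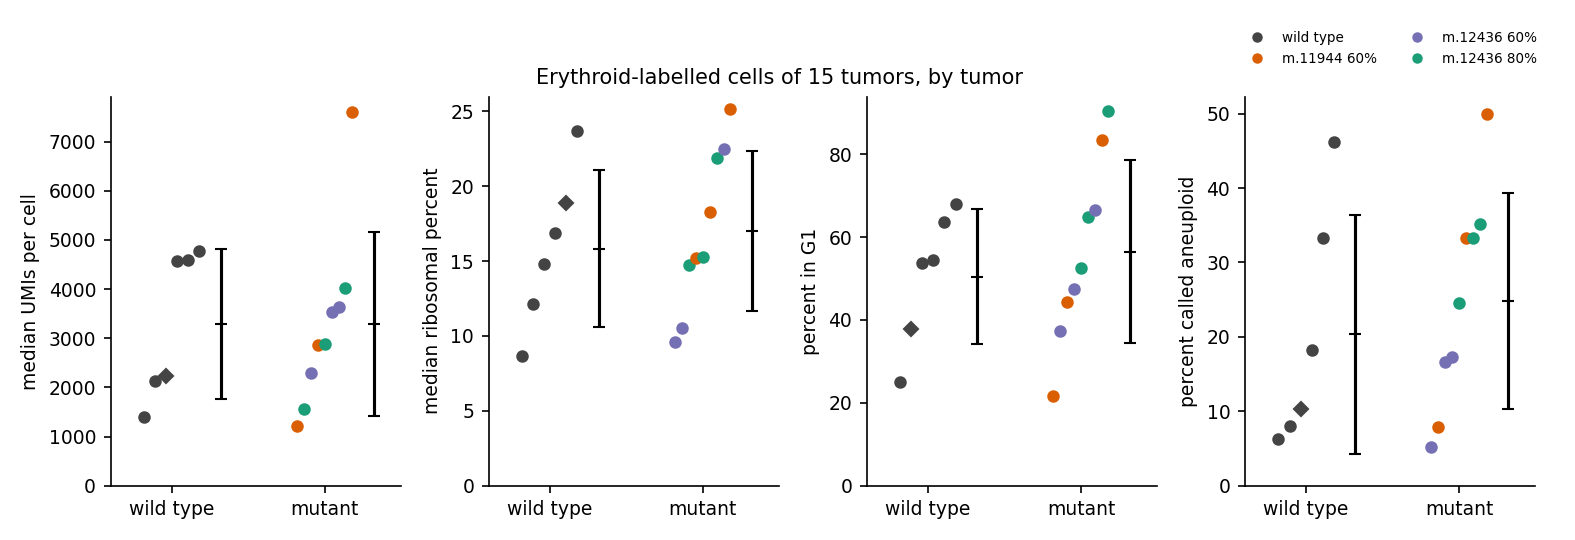
Median UMIs, median ribosomal percent, percent in G1 and percent called aneuploid of the erythroid-labelled cells of each of 15 tumors, coloured by group, with the mean and SD of 6 wild-type and 9 mutant tumors beside the points and wild-type tumor 5 as a diamond. The groups overlap in all 4 panels, and wild-type tumor 5 lies inside the range of the other tumors.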

How the data were processed

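The deposited table of cells was used, which the authors made with Cell Ranger and Seurat after aligning to GRCm39. It holds the UMI count and gene count of each cell as deposited, without normalization. The authors also computed per cell the percent of UMIs that are mitochondrial, ribosomal or from genes of dissociation, together with a doublet score, S and G2M scores and an epithelial score. The authors kept cells from 500 genes, up to 37000 UMIs and up to 5% mitochondrial UMIs. Every cell in the table lies within those limits. They joined libraries with Harmony, and called ploidy with CopyKAT against T and NK cells as the diploid reference. Classes were named with scType and clustifyr and then adjusted by a manual review of marker genes.

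Tumors were the replicates, and the labels number them as separate samples of a group. Shares are percent of a tumor's cells. Groups were compared by exact two-sided permutation tests of the difference of means, with Benjamini-Hochberg adjustment across the 15 classes or 11 measures and a threshold of 0.05, with intervals from inverting the test. Smallest p values were 8.74e-05 for 7 against 9 tumors, 0.000583 for 7 against 6, 0.00833 for 7 against 3 and 0.0119 for 6 against 3. Every cluster holding labelled cells, every tumor and, for each measure, the 3 nearest classes by pooled value were to be named. The cells and comparisons were chosen with earlier results of these data known. Ranges of UMIs, the limit of 10000 UMIs, the tumor's own quartile and the limit of 5% ribosomal UMIs were chosen after seeing the data. Other cells of a tumor were weighted to the erythroid-labelled cells' UMIs in steps of 0.25 on the log2 scale. Alternatives were other denominators, medians, the arcsine square root, the centered log ratio (0.5 added to each count), floors of 600 and 1000 genes, removal of aneuploid-called cells, a minimum of 10 cells per tumor, batches, a replicate block, leaving out each tumor and edgeR's quasi-likelihood test. Tests were checked on simulated counts with a milder spread between tumors than that of the erythroid share, so the check does not cover its skew. The work used edgeR 4.0.16 under R 4.3.3 and, under Python 3.11.15, matplotlib 3.10.9, pandas 2.3.3, scipy 1.17.1 and numpy 2.4.6.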

Additional observations from a re-analysis of the deposited data

Results flagged for a closer look

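In 21 sets of 6 to 9 tumors, 4 had a tumor that stood far from the others by Dixon's criterion at the 95% level, which chance alone would give about 1 time in 20. Among the 7 wild-type tumors, tumor 5 stood apart with an erythroid share of 5.93%, where the next was 0.518%, and with 7.32% of non-malignant cells, where the next was 0.805%. Both values rest on the same cells, and that tumor was known for its share from earlier results of these data, so the criterion adds no separate evidence there and its 2 entries are not to be read against the chance rate. Among the 9 mutant tumors, m.11944 60% 3 stood apart with a median of 7598 UMIs per erythroid-labelled cell, where the next was 4032, and with a median of 2571 genes, where the next was 1565. That tumor held 6 such cells, and its other cells also had the highest median of genes among the tumors, 2739.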

How the results depend on the processing

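No alternative brought a share comparison past the adjusted threshold. Mutant minus wild type rested on wild-type tumor 5. Leaving out each tumor gave −0.85 to 0.137 percentage points for all mutant tumors, −0.85 to 0.133 for 60% and −0.84 to 0.145 for 80%, and only leaving out that tumor turned the sign. Without it and m.11944 60% 1 together the first 2 differences were 0.0843 and 0.0479, and within batches without it the first was 0.113. For 80% against wild type the centered log ratio gave 0.607 on the natural log scale, medians 0.113 and the within-batch permutation 0.0620 percentage points. The difference of 80% and 60% tumors went from −0.093 to 0.149 with each tumor left out, turning negative without m.11944 60% 2 or 3, m.12436 60% 2 or 3 or m.12436 80% 2, and was −0.047 without aneuploid-called cells. That of m.12436 and m.11944 at 60% went from −0.19 to 0.360, turning negative without m.11944 60% 2 or 3 or m.12436 60% 1, and the centered log ratio gave −0.075. The 60% and 80% tumors share no batch, and neither do the m.11944 and m.12436 tumors, so no within-batch value could be had.

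The labels give numbers 1 to 3 in every group and do not say whether a number links tumors across groups. Same-numbered tumors did not consistently deviate together (correlations of class shares from −0.84 to 0.599, with 2 of 9 highest for their own number). Some mutant groups lay in other batches than wild-type tumors 1 to 3, so these correlations cannot tell whether same-numbered tumors share more than a number. With a replicate block, which drops wild-type tumors 4 to 7, mutant minus wild type was 0.247 percentage points, 0.243 for 60% and 0.255 for 80%. With that block median UMIs differed by 1705, the largest move of any alternative for that measure, median genes by 401, ribosomal percent by −5.13 and percent in G1 by 20.4 (0 of the measures passed).

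No alternative brought any of the 11 measures past the threshold, and leaving out each tumor kept that count at 0. The near-zero difference in median UMIs turned to −97.6 with means over cells, −702 with at least 10 cells, −456 with at least 1000 genes, −284 without aneuploid-called cells and −72 within batches, and was −535 to 300.5 with each tumor left out. That in genes was 68.3 with means and −191 to 61.3 with each tumor left out, and that in ribosomal percent −0.25 to 2.75. Beside the other cells of a tumor, the median difference of −765.5 genes was −175 at the same UMIs and −65 beside non-malignant cells, with −805 to −747 when each tumor was left out. That in UMIs was 616 beside non-malignant cells. The median difference in ribosomal percent was −2.73 per tumor but 2.53 beside non-malignant cells, 2.51 with all cells pooled and 2.93 pooled without wild-type tumor 5.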
